A study of Mus musculus with 3 samples.

Results

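The cells described here are conventional dendritic cells (cDCs), taken from naive mouse lung and from transplanted mouse lung 3 days after reperfusion. A cell was counted as a cDC when it held at least 3 UMIs (unique molecular identifiers, each counting 1 captured RNA molecule) of Flt3, Zbtb46, Xcr1, Clec9a, Cd209a and Fscn1 together, at least 0.5% of its UMIs on H2-Aa, H2-Ab1 and Cd74, and few or no transcripts of B cells, T cells, plasmacytoid dendritic cells, C1q macrophages or neutrophils. This rule found 124 cDCs among 11142 cells with more than 200 genes and under 10% mitochondrial UMIs, 16 in the naive library and 108 at 3 days. The 2 libraries held 11937 barcodes, out of 22265 in the series. The members were chosen by these transcript counts, so the levels of the rule's own genes are a description and not a result.

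The naive library came from left lungs of C57BL/6J mice that were not operated. The 3-day library came from left lungs of B6 CD45.2 donors placed in syngeneic B6 CD45.1 recipients after 60 minutes of ischemia at 4 °C and 45 minutes at 28 °C. The mice were 8 to 10 weeks old according to the methods, and both sexes were used in the study. Each library pooled cells of 2 mice and was sorted for CD45.1, the allele that marks recipient leukocytes in the transplants, so donor cDCs that stayed in the graft were not sampled at 3 days. For the naive mice the labels name the same antigen for the sort, although C57BL/6J mice carry CD45.2, and this could not be settled from the files. The labels list both a 5′ and a 3′ kit and the methods a 3′ kit, so the kit behind each library is uncertain, which bears on every value set between the naive and 3-day cells. With 1 library per condition no test between conditions could be made, and every interval below covers counting error only, not the spread between mice.

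Conventional dendritic cells take up antigen in tissues, carry it to the draining lymph node and present it to T cells. Type 1 cells (cDC1), which depend on the transcription factors IRF8 and BATF3 and carry XCR1 and CLEC9A, are known for presenting antigen from dead cells on MHC class I. Type 2 cells (cDC2), which carry SIRPα, CD11b and in mouse lung often CD209a and MGL2, present mainly on MHC class II. Either type can mature, and then gains CCR7, the receptor that guides it to lymph nodes, together with the actin-bundling protein fascin (Fscn1) and the chemokine CCL22.

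Levels of the rule's genes describe which cells were taken. In pooled values, which are the UMIs of all cDCs of a library divided by their total and given per 1000000 (CPM), Flt3, the receptor for the growth factor that sustains dendritic cells, stood at 229 CPM in naive cDCs and 175 CPM at 3 days, and was detected in 10 of 16 and 90 of 108 cells. Zbtb46, a transcription factor of the cDC lineage, stood at 309 and 56.1 CPM, Clec9a at 170 and 68.7, Xcr1 at 17.4 and 38.2, Cd209a at 574 and 335, and Fscn1 at 299 and 36.6 CPM. Some genes outside the rule were also high. Cst3, which encodes the protease inhibitor cystatin C, was found in all 16 and all 108 cells, at 6024 and 6935 CPM against 424 and 1113 CPM in all other kept cells of the same libraries. Ckb, a creatine kinase, stood at 462 and 819 CPM against 8.49 and 56.4, and Tnip3, an inhibitor of NF-κB signalling, at 480 and 446 CPM against 9.22 and 51.0. Ccl17, a chemokine for CCR4-bearing T cells, stood at 101 and 216 CPM against 0.255 and 8.83, from 5 of 16 and 21 of 108 cells. These genes were chosen after their values were seen. The 12 listed cDC core genes outside the rule summed to 1373 and 1026 CPM in naive and 3-day cDCs. Their sum was 253 and 222 CPM in monocytes and 883 and 487 CPM in B cells, but 2366 and 1349 CPM in plasmacytoid dendritic cells. That list did not set cDCs apart from plasmacytoid cells.

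The rule itself limited Cd79a, Cd79b, Ms4a1, Cd3e, Siglech, S100a8 and S100a9, so low sums of the B cell, T cell, plasmacytoid and neutrophil lists were partly set by the choice of cells. The summed level of 8 B cell genes was 52.1 CPM in naive cDCs and 20.3 CPM at 3 days, against 6235 CPM in the B cells of the 3-day library, and that of 8 T cell genes 10.4 and 10.6 CPM against 2956 CPM in its T cells. The 12 genes of the plasmacytoid dendritic cell list summed to 786 and 302 CPM, of which Bst2, an interferon-induced gene, gave 375 and 148. The 8 neutrophil genes summed to 90.4 CPM in the naive cells and 417 CPM at 3 days, led by S100a9 at 45.2 and 230 CPM, while Ly6g, a defining neutrophil gene, was at 0 in both. The same list stood at 105 and 3917 CPM in the B cells of the libraries. Monocyte genes were not low everywhere. Lyz2, a lysozyme gene and the most abundant of the 12 monocyte genes, stood at 1512 CPM in naive cDCs and 1893 CPM at 3 days, and the summed list ran from 0 to 31537 CPM over the 108 cells with a median of 958. Of these 108 cells, 9 held at least 10000 CPM of the list, and 1 of 16 naive cells did. Among naive cells, 1 assigned to cDC2 held 72 of the 78 UMIs on 5 endothelial genes. Results without cells carrying genes of other lineages are given where they moved, and otherwise the part of such transcripts in the values below was not tested.

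Cells lay on both sides of the threshold. At 3 days 9 cells held exactly 3 UMIs of the rule's genes, 9 held 4 and 62 held 10 or more. Of the 3-day cells that met every other condition, 10 held 2 and 23 held 1. In the naive library 1 cell held exactly 3, 0 held 4 and 12 held 10 or more, while 2 held 2 and 9 held 1. The cDCs were among the deeper cells, with a median of 18708 UMIs and 3983 genes in the naive library (range 2290 to 27857 UMIs) and 21474.5 UMIs and 3984 genes at 3 days (5600 to 45940), where all kept cells had medians of 7729.5 and 5797 UMIs. The study's own upper limits of 6000 genes and 25000 UMIs would remove 4 of the 16 and 34 of the 108. Scrublet called 0 naive cDCs and 1 cDC at 3 days a doublet.

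The cDCs made up 0.609% of kept cells in the naive library (exact 95% interval 0.348 to 0.987%) and 1.27% at 3 days (1.04 to 1.53%). The intervals did not overlap, but the order turned when each cell was thinned to 3000 UMIs before the rule was applied, to 0.527% (0.281 to 0.899%, 13 of 2467 cells) in the naive library and 0.433% (0.3002 to 0.605%, 34 of 7847 cells) at 3 days. The rule's genes together stood at 1599 CPM in the naive cDCs and 709 CPM at 3 days, and the rule counts UMIs of these genes. The cause of the turn was not tested, and no order of the shares is read from these libraries.

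**Figure D1:**
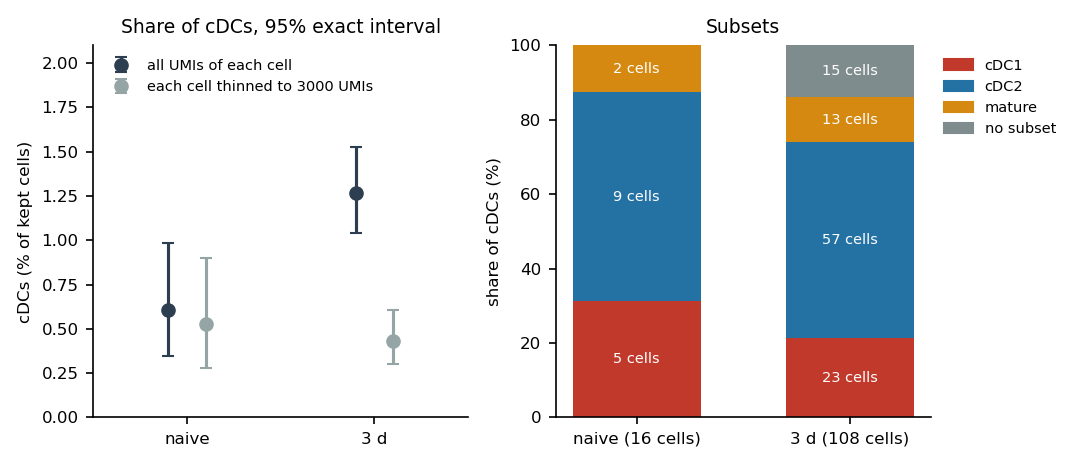
Left, cDCs as a share of kept cells (%) in the naive and 3-day libraries, with exact 95% intervals, from all UMIs of each cell and after thinning each cell to 3000 UMIs. Right, subsets as a share of the cDCs of each library (%), with the number of cells. The 3-day share is 1.27% from all UMIs and 0.433% after thinning.

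The cDCs were split by subset genes. A cell was cDC1 by Xcr1 and Clec9a, cDC2 by Cd209a, Mgl2 and Clec10a, or mature by Fscn1, Ccr7 and Ccl22, where the highest of these 3 sums was at least 2 UMIs and at least 2 times the next. At 3 days 57 cells (52.8%, exact 95% interval 42.9 to 62.5%) were cDC2, 23 (21.3%, 14.005 to 30.2%) were cDC1, 13 (12.04%, 6.57 to 19.7%) were mature and 15 (13.9%, 7.99 to 21.9%) fell in no subset. In the naive library 9 of 16 (56.2%, 29.9 to 80.2%) were cDC2, 5 (31.2%, 11.02 to 58.7%) cDC1 and 2 (12.5%, 1.55 to 38.3%) mature. The intervals of each subset overlapped between the libraries, and 16 naive cells could not show a difference of this size. Among the naive cDC2, Clec9a was found in 4 of 9 cells, against 3 of 57 at 3 days.

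The cDC1 differed from the cDC2 in many genes that had no part in choosing them. Irf8, the transcription factor that sets up the cDC1 lineage, was found in all 23 cDC1 at 3 days, at 615 to 3252 CPM per cell with a median of 1121, and in 33 of 57 cDC2, at 0 to 626 CPM with a median of 46.6. The cell ranges met only at their ends. Rab7b, a late endosomal GTPase, ran from 234 to 1775 CPM in the 23 cDC1 with a median of 524, and was absent from 45 cDC2, which ranged from 0 to 461 CPM. Ppt1, a lysosomal thioesterase, had medians of 762 and 59.3 CPM in cDC1 and cDC2. Itgae, the αE integrin chain known as CD103, was found in 18 of 23 cDC1 and in 3 of 57 cDC2. In B cells of the library, at a median of 5146 UMIs, 12 of 2035 (0.590%) held an Itgae UMI. In its T cells, at a median of 8604 UMIs, 83 of 1004 held one.

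The naive cDC1 had the same order with fewer cells. Of these 5 cells 3 lay near the cut of the subset rule, and the median depth of the 5 was 8641 UMIs. Pooled Irf8 stood at 1716 CPM in 5 cDC1 and 53.3 CPM in 9 cDC2, Rab7b at 524 and 37.3 CPM, Ppt1 at 953 and 26.6 CPM, Cadm1, an adhesion molecule of cDC1, at 1732 and 15.99 CPM, and Itgae at 79.5 and 0 CPM, the last from 5 UMIs in 2 cells. A single cell gave 80.0% of the Ppt1 UMIs of the naive cDC1, and a single cell 78.8% of the Rab7b UMIs. By the rule for naming genes, the 8 genes whose lower ratio of cDC1 to cDC2 over the 2 libraries was highest were P2ry14, Cadm1, Ppt1, Irf8, Rab7b, Agpat3, Itgae and Ifi205. Their log2 ratios of CPM plus 10 ran from 2.84 for Ifi205 to 3.98 for P2ry14 at 3 days.

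Of 16 listed cDC1 genes outside the rule, 13 had at least 20 UMIs in cDC1 and cDC2 at 3 days, and 13 of those were at least 2-fold higher in cDC1. Over all 6863 genes with that many UMIs, 4.34% were. The list's median log2 ratio was 2.84, and that of all genes -0.02. In the naive library 9 of 10 were at least 2-fold higher, where 14.4% of all genes were, and the genes lower by as much made up 18% there. Batf3, a partner of IRF8, stood at 102 CPM in cDC1 and 29.4 CPM in cDC2 at 3 days. Its log2 ratio was 1.79 without the added 10 (95% counting interval 1.18 to 2.43) and 1.51 with it. Tlr3, a sensor of double-stranded RNA, stood at 63.3 and 0.84 CPM, and Wdfy4, which is needed for cross-presentation, at 704 and 162 CPM. Gcsam, found in 17 cDC1 and no cDC2, was at least 29.4-fold higher in cDC1 against a floor of 3 UMIs over all cDC2.

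A few class I presentation genes were higher in cDC1 at 3 days. Of 17 listed genes, all tested, 4 were at least 2-fold higher in cDC1 at 3 days and 0 lower, where 4.34% of all genes were higher and 8.93% lower, with a list median of 0.39, while the class I chains H2-K1, H2-D1 and B2m had log2 ratios of -0.67, -0.48 and -0.52. The 4 were the immunoproteasome subunits Psmb8 (1238 against 473 CPM) and Psmb9 (630 against 165 CPM) and the peptide transporter genes Tap1 (230 against 99.1 CPM) and Tap2 (150 against 54.6 CPM). Psmb9 ranged from 262 to 1148 CPM over the 23 cDC1 with a median of 592, and from 0 to 486 CPM over the 57 cDC2 with a median of 140. In the naive library 2 of 14 tested class I genes were higher and 0 lower, near the 14.4% of all genes that were higher. The list median there was -0.06. Tap1 and Psmb9 had naive log2 ratios of 1.56 and 1.18, and Psmb8 and Tap2 of 0.81 and 0.27. At 3 days, class II genes were also compared. Of 12 class II genes outside the rule, 4 were at least 2-fold lower in cDC1, among them the protease Ctss (496 against 1297 CPM) and the thiol reductase Ifi30 (946 against 1957 CPM), and 1 was higher, March1, a ubiquitin ligase for class II molecules (74.1 against 21.0 CPM). Havcr2, the checkpoint receptor TIM-3, stood at 380 CPM in cDC1 and 120 CPM in cDC2 at 3 days, and at 540 and 139 CPM in the naive library.

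Genes of cDC2 had the opposite order. Of 12 listed cDC2 genes outside the rule, 11 were tested at 3 days and 9 were at least 2-fold lower in cDC1, where 8.93% of all genes were. In naive cells 4 of 7 were lower, where 18% of all genes were, and 1 was higher, Klf4, a transcription factor, at 365 CPM in cDC1 and 160 CPM in cDC2. Sirpa, an inhibitory receptor of myeloid cells, was found in 55 of 57 cDC2, with a median of 184 CPM and a highest of 537, and in 3 of 23 cDC1, with a highest of 87.1 CPM. Itgam, the CD11b chain, had medians of 228 and 0 CPM in cDC2 and cDC1. Irf4, a transcription factor of cDC2, stood at 87.3 and 3.09 CPM at 3 days and at 42.6 and 31.8 CPM in the naive cells. The 8 genes with the strongest order in both libraries were Tmem176b, Tmem176a, Arl5c, Il2rg, Zeb2, Pltp, Marcksl1 and Clec4a3. Tmem176b, a membrane channel gene, stood at 611 CPM in cDC2 and 4.63 CPM in cDC1 at 3 days, and Zeb2, a transcription factor that opposes the cDC1 fate, at 431 and 26.2 CPM.

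Genes shared with monocytes were also found in cDC2. At 3 days the 12 monocyte genes summed to 2923 CPM in cDC2 and 2345 CPM in cDC1, against 1940 CPM in B cells and 2012 CPM in T cells. In the median cell the order turned, to 1242 CPM in cDC2 and 1477 CPM in cDC1. Among the cDC2 6 cells held at least 10000 CPM of the list, and among the cDC1 0 did. Lyz2, the most abundant gene of the list, stood at 1735 CPM in cDC2 and 1993 CPM in cDC1. The part of transcripts from other cells in these values was not tested. Of 10 tested monocyte genes, 6 were at least 2-fold lower in cDC1 than in cDC2 at 3 days, where 8.93% of all genes were, and none was higher. Csf1r, the receptor for macrophage colony stimulating factor, was found in 45 of 57 cDC2 with a median of 128 CPM, and Cd14, a co-receptor for bacterial lipopolysaccharide, stood at 281 CPM against 38.6 CPM in cDC1. Mrc1, the mannose receptor, was found in 30 of 57 cDC2, from 0 to 1235 CPM, and stood at 266 CPM against 6.18 CPM in cDC1. Costimulatory Cd80 and Cd40 stood at 212 and 118 CPM in cDC2 against 63.3 and 17.0 CPM in cDC1. Ccl17 stood at 210 CPM in cDC2, from 11 of 57 cells, and at 0 CPM in cDC1. Pooled, it was at least 45.3-fold higher in cDC2 against a floor of 3 UMIs over all cDC1. In the naive library the order was the other way, with 127 CPM in cDC1 from 2 cells and 42.6 CPM in cDC2 from 1 cell.

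**Figure D2:**
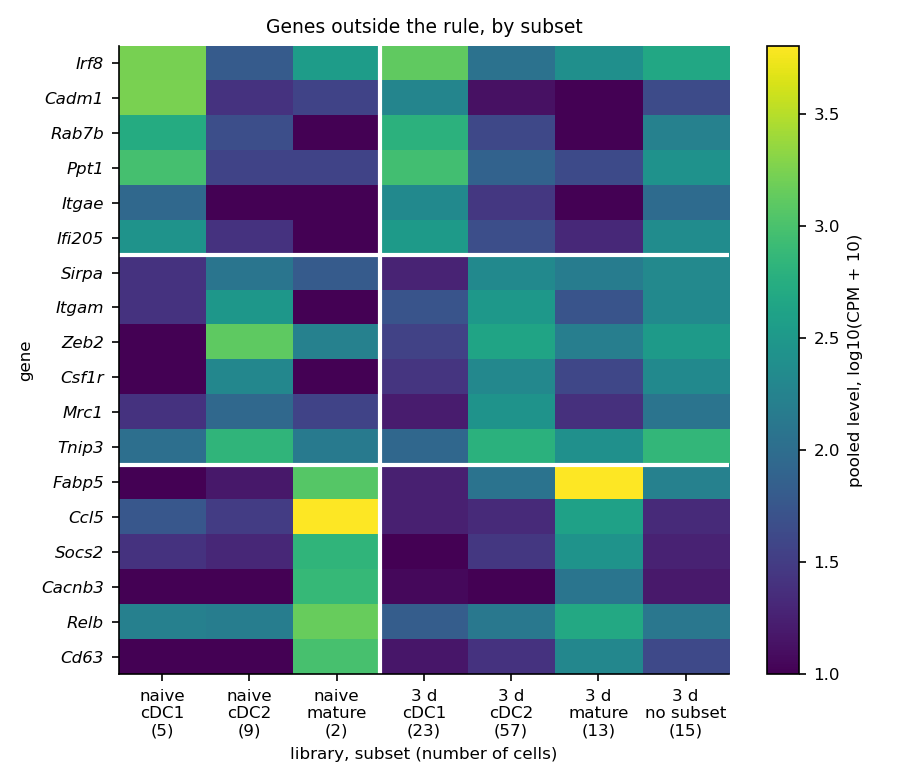
Pooled levels as log10(CPM + 10), by color, of 18 genes (rows) outside the rule in each subset of the naive and 3-day libraries (columns, number of cells in parentheses). The top 6 genes are highest in cDC1, with Irf8 at 1716 CPM in naive and 1331 CPM in 3-day cDC1, the middle 6 highest in cDC2 or cells of no subset at 3 days, and the bottom 6 highest in mature cells.

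Surface antibodies gave a readout that the rule did not use. The 3-day file counted 277 antibody features, which carry names of human antigens and include 9 isotype controls, and the naive file held none. In the 108 cDCs 242 features had no count at all, including those named CD11c, CD103 and XCR1, and those proteins could not be read from this panel. Only ITGB7, CD49f, CD44 and Mac2 exceeded the highest isotype control, which had a mean of 0.38 counts per cell, and these 4 held 99.1% of the antibody counts of cDCs.

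ITGB7, the integrin β7 chain that pairs with CD103 or with α4, marked cDC1. Its counts ran from 7 to 1944 over the 23 cDC1 with a median of 197, from 2 to 1022 over the 57 cDC2 with a median of 14, and from 1 to 35 over the 13 mature cells with a median of 6. Of the cDC1, 22 lay above the cDC2 median and 2 above every cDC2. The mean was 9.77 times as high in cDC1 as in cDC2, at 354 ± 466 (SD over 23 cells) and 36.3 ± 135 (SD over 57 cells). B cells had a median of 29 counts, T cells 15 and monocytes 51. The highest isotype mean was 0.26 in cDC1 and 0.3 in cDC2.

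Between cDC1 and cDC2 the order of the ITGB7 antibody did not follow the transcript of the same gene. Itgb7 stood at 289 CPM in cDC1 and 295 CPM in cDC2, with cell medians of 277 and 274 CPM. In mature cells, where the antibody had its lowest median, the transcript was also lowest, at 133 CPM with a cell median of 98.6 CPM. Itgae, the partner chain of Itgb7, stood at 205 CPM in cDC1 and 18.5 CPM in cDC2. Within the cDC1, the 18 cells with an Itgae UMI had a median of 302.5 ITGB7 counts (42 to 1944), and the 5 without one had a median of 21 (7 to 152). Of the cDC2, 3 held Itgae UMIs and 1 of these had the highest count of all cDC2, 1022, while the 54 others reached at most 131. The other partner, Itga4, stood at 221 CPM in cDC1, 290 in cDC2 and 524 in mature cells, in the reverse order. These cells share a library, and a deeper cell is more likely to yield an Itgae UMI, so the link is a description.

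CD49f, the integrin α6 chain, had more counts in cDC1 than in cDC2, with a median of 53 counts (12 to 247) against 13 (1 to 80), and means of 76.0 and 19.7. Its median was 3 in B cells, 15 in T cells and 16 in monocytes, but 115.5 in C1q macrophages, above that of cDC1. Per 10000 antibody counts of each subset the order of cDC1 and cDC2 turned, to 1639 and 2009. On that scale ITGB7 stood at 7642 in cDC1 and 3702 in cDC2. That total includes ITGB7, so the shares of other antibodies fall where ITGB7 is high, and no order is read from them. The transcript of CD49f, Itga6, was barely detected, with 9 UMIs in all cDC1 and 6 in all cDC2. CD44 had medians of 25 and 23 counts, and 589 and 3448 per 10000 antibody counts. Mac2 (galectin 3) had medians of 2 and 4 counts, and 90.9 and 705 per 10000. Apart from ITGB7, cDC1 and cDC2 had median totals of 96 and 53 antibody counts. The genes lie on GRCm38, in GENCODE vM21, as Itgae on chromosome 11 (73090583 to 73147446, plus strand), Itgb7 on chromosome 15 (102215995 to 102231944, minus strand) and Itga6 on chromosome 2 (71745616 to 71858416, plus strand), and all are protein-coding.

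**Figure D3:**
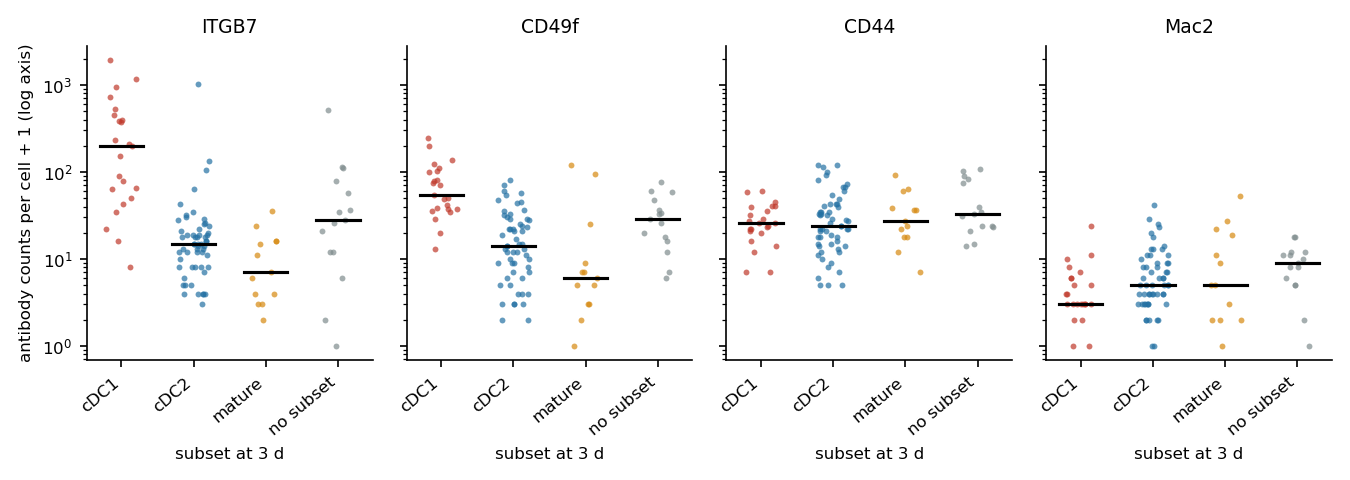
Antibody counts per cell plus 1 (log axis) in the 3-day cDCs by subset for the 4 antibodies above the isotype controls. Each point is a cell and each bar a median. ITGB7 has medians of 197 in cDC1, 14 in cDC2 and 6 in mature cells, and CD44 has medians of 25 in cDC1 and 23 in cDC2.

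Mature cDCs formed the smallest subset. Ccr7, which helped choose them, ran from 174 to 7156 CPM over the 13 cells at 3 days. Of 20 listed maturation genes outside the rule, 17 were tested against the other cDCs of that library, and 13 were at least 2-fold higher, where 5.32% of all genes were (median log2 ratio 2.12, all genes -0.11). With only 2 naive mature cells, 14 of 15 were higher, where 15% of all genes were higher and 37.1% lower. Fabp5, a fatty acid binding protein, stood at 6418 CPM against 86.8 in the other 3-day cDCs and 1158 against 3.99 in the naive cells. Over the 13 cells it ranged from 49.3 to 21848 CPM with a median of 3027.

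The remaining genes of the rule for mature cells were Ccl5, Socs2, Cacnb3, Eno3, Anxa3, Lima1 and Cd63. Il4i1, an amino acid oxidase that dampens T cells, was found in all 13 mature cells, from 58.2 to 2977 CPM, and in none of the 23 cDC1. Relb, an NF-κB subunit of dendritic cell maturation, stood at 480 CPM against 103, and Cd274, which encodes PD-L1, at 233 CPM against 66.7. The 8 lowest in mature cells were Lyz2, Rab7b, Iqgap2, P2ry14, Plac8, Ccl6, Naaa and F13a1. Lyz2 was at most 150 CPM in any mature cell. Of 14 tested cDC1 genes 11 were at least 2-fold lower in mature cells than in the other cDCs at 3 days, and of 11 cDC2 genes 5 were, where 9.58% of all genes were lower.

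The mature cells of the libraries differed from each other in some genes. Ccl5, a chemokine for T cells and monocytes, stood at 5489 and 7545 CPM in the 2 naive mature cells and ran from 0 to 1472 CPM in the 13 at 3 days, with no overlap. Fscn1 stood at 1349 and 3645 CPM in the naive cells, and was found in 7 of 13 at 3 days, at most at 1562 CPM, so the ranges overlapped. Cacnb3, a calcium channel subunit, stood at 754 CPM in the naive pair and 114 CPM at 3 days. Fabp5 had the opposite order, with 512 and 2046 CPM in the naive cells and a median of 3027 at 3 days. With 2 naive cells these are values of those cells.

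The 15 cells of no subset held sums for more than 1 subset or for none. Flt3 was found in 13 of them, with a median of 149 CPM. Among these cells 3 held at least 10000 CPM of the monocyte list and the highest 31537 CPM. Their leading genes came from few cells, with S100a9, a neutrophil and monocyte alarmin, at 967 CPM but 83.8% of its UMIs in 1 cell, Apoe at 482 CPM with 94.1% in 3 cells, and Ccl17 at 693 CPM with 95.5% in 3 cells. A few cells thus set the pooled values of this group.

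Cell cycle transcripts were present in a part of the 3-day cDCs. Of 16 cell cycle genes, all tested, 15 were at least 2-fold higher at 3 days than in naive cDCs, where 6.92% of 8092 genes were, and none was lower. Under the study's upper limits of 6000 genes and 25000 UMIs 7 were. The list's median log2 ratio was 1.81, and that of all genes -0.02. Summed over the list, the naive cDCs held 22 UMIs (76.5 CPM) and the 3-day cDCs 2082 UMIs (846 CPM), a log2 ratio of 3.47 (95% counting interval 2.87 to 4.15). The B cells of the same libraries stood at 96.4 and 214 CPM, the T cells at 485 and 210 CPM and the monocytes at 288 and 89.1 CPM. The C1q macrophages stood at 56.5 CPM in 8 naive cells and 494 CPM in 602 cells at 3 days, in the same direction as the cDCs. Less the mean log2 ratio of B and T cells, 15 of 16 genes were at least 2-fold higher, where 6.59% of all genes were higher on that scale and 7.67% lower.

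These transcripts were concentrated in few cells. At 3 days 20 of 108 cDCs (18.5%, exact 95% interval 11.7 to 27.1%) held at least 10 UMIs of the list, and they held 94.2% of its UMIs. In the naive library 0 of 16 did, which allows a share of up to 18.8% by a floor of 3 counts and 20.6% by the exact 95% interval, and the highest cell held 8. In the plot of UMIs per cell 37 of 108 cells stood at 0 and the highest at 294. Thinned to 10000 UMIs, 18 of 103 cells at 3 days (17.5%, 10.7 to 26.2%) and 1 of 13 in the naive library (7.69%, 0.195 to 36.0%) held at least 5 UMIs, and the intervals overlapped. The cells with 10 or more UMIs had a median of 31300.5 UMIs in all, against 21474.5 for all 3-day cDCs.

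By subset, 9 of 23 cDC1 (39.1%, 19.7 to 61.5%), 8 of 57 cDC2 (14.04%, 6.26 to 25.8%), 1 of 13 mature cells (7.69%, 0.195 to 36.0%) and 2 of 15 others (13.3%, 1.66 to 40.5%) held at least 10. After thinning to 10000 UMIs the counts were 8 of 23 cDC1 (34.8%, 16.4 to 57.3%) and 7 of 55 cDC2 (12.7%, 5.27 to 24.5%), and these intervals overlapped. Between cDC1 and cDC2 of that library 10 of 16 genes were at least 2-fold higher in cDC1, where 4.34% of all genes were. The share in C1q macrophages at 3 days was 7.14% (43 of 602, against 0 of 8 in the naive library) and in monocytes 0.628% (6 of 956), at median depths of 10645.5 and 15398.5 UMIs. At 10000 UMIs per cell, 45 of 322 macrophages (13.98%, 10.4 to 18.2%) and 9 of 671 monocytes (1.34%, 0.615 to 2.53%) held at least 5. The macrophage interval overlapped that of all 3-day cDCs at this depth (17.5%, 10.7 to 26.2%), and the monocyte interval did not. Top2a, the topoisomerase of dividing cells, stood at 119 CPM in 18 cells at 3 days and at 6.95 CPM in the naive cDCs, Mki67, a marker of cycling cells, at 99.6 and 6.95 CPM, and Pclaf, a partner of the replication clamp, at 86.2 CPM in 16 cells and 0 CPM. Against a floor of 3 UMIs in the naive cDCs, Pclaf was at least 8.26-fold higher.

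**Figure D4:**
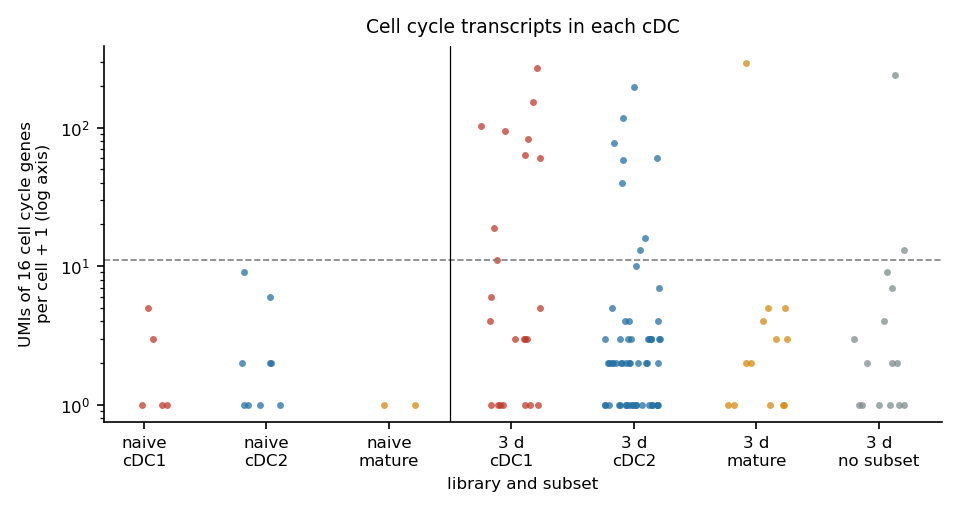
UMIs of 16 cell cycle genes per cDC plus 1 (log axis), by library and subset, each point a cell. The dashed line marks 10 UMIs. Of 108 cells at 3 days 20 lie on or above it, 9 of them cDC1, and 0 of 16 naive cells do.

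Promoters are shown because 15 of these genes were higher together. Late cell cycle genes are known to carry CCAAT boxes and a CHR element (TTTGAA or TTCGAA). In the 250 bases before the RefSeq start, 14 of the 16 genes had an entry of full length (GRCm38.p6). Of these, 5 held TTTGAA or TTCGAA on either strand, where 17.4% of all 27025 genes did, and 10 held CCAAT on either strand, where 34.5% did. Both were found in 5 of the 14 and in 6.21% of all. The 3 of these 5 with the highest 3-day ratios follow, 5′ to 3′ toward the gene, with capitals for both elements and their reverse complements. The CHR matches overlap no CCAAT match, but in Ube2c 1 CCAAT overlaps its own reverse complement on the other strand, and both are counted.
Top2a, chr11:99024190-99024439, minus strand: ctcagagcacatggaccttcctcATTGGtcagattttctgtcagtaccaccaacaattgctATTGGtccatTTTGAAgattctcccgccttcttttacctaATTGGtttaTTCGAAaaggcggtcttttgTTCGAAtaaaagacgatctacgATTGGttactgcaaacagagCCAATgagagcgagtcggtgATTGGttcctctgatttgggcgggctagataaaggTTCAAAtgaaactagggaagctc
Mki67, chr7:135716380-135716629, minus strand: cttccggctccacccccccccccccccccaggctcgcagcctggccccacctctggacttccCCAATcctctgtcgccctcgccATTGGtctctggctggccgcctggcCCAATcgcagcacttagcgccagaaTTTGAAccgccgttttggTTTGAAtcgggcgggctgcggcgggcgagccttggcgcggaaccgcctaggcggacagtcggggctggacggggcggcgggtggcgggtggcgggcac
Ube2c, chr2:164769679-164769928, plus strand: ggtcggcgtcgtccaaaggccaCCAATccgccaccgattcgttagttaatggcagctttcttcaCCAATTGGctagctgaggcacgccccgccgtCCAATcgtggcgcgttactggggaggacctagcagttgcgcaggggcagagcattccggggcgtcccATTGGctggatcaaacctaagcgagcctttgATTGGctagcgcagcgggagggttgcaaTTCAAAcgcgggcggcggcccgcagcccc
Top2a holds 4 matches of TTTGAA or TTCGAA and 6 of CCAAT, Mki67 2 and 3, and Ube2c 1 and 6. A match of letters is a description and not a binding site.

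Across all genes the 3-day and naive cDCs could be compared only with care. Of 8092 genes with at least 20 UMIs, 560 (6.92%) were at least 2-fold higher at 3 days and 1076 (13.3%) lower, on the log2 ratio of CPM plus 10. Gene structure went with the ratio. The 850 genes with over 100 kb of introns had a median log2 ratio of -1.14, and the 215 genes without introns one of 0.36. Cmss1, which has 303 kb of introns, stood at 1081 CPM in naive and 3.25 CPM in 3-day cDCs, and Gphn at 685 and 6.10 CPM. B and T cells of the same libraries had like ratios, and the log2 ratios less B and T cells were -0.30 and -0.21. The file headers name Cell Ranger 7.1.0 for the naive and 6.0.0 for the 3-day library, and no source used here states the handling of introns. The part of the software in these ratios was not tested. For the lists that follow, counts less the mean ratio of B and T cells are also given. Lower on that scale means a ratio below that of B and T cells, and not by itself a lower level in 3-day cDCs.

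Of the 16 highest and lowest genes by the naming rule, Thbs1, an adhesion glycoprotein, went from 3.48 CPM in 1 naive cell to 202 CPM in 51 cells, Ifitm1, an interferon-induced membrane protein, from 38.2 CPM in 1 cell to 707 CPM in 94 cells, Cxcl2, a neutrophil chemokine, from 10.4 to 292 CPM, and Mt2, a metal-binding protein, from 3.48 to 139 CPM. Less B and T cells the log2 ratios of Thbs1 and Ifitm1 were -0.11 and 0.45, that of Cxcl2 0.75 and that of Mt2 4.23. Thbs1 is also 1 of 6 listed transcripts of 3-day macrophages, of which 4 of 5 tested were higher, where 6.92% of all genes were. Less B and T cells 0 were higher and 2 lower, where 6.59% and 7.67% of all genes were. That list summed to 86.9 and 507 CPM in cDCs and to 83.6 and 1428 CPM in B cells. Plet1, Dut, Satb1 and Bcl2 joined Mt2, Pclaf, Top2a and Hist1h2ap as the highest less B and T cells. Among the lowest, Sema3c stood at 278 CPM in a single naive cell, and Epas1, a hypoxia-inducible factor of endothelium, at 278 CPM in 3 cells, in the library whose cDC2 include the cell with endothelial genes. In the same group Ccl5 stood at 845 and 52.8 CPM, and the 2 mature cells held 236 of its 243 naive UMIs.

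Most antigen presentation genes were less than 2-fold apart between the libraries. Of 15 class II genes, 2 were at least 2-fold higher at 3 days and 1 lower, where 6.92% of all genes were higher and 13.3% lower, and the median log2 ratio was 0.23. The list includes H2-Aa, H2-Ab1 and Cd74, which the rule used and which led its summed level, so their levels and the lower end of the cell ranges were partly set by the choice of cells. Less B and T cells 1 was higher and 6 were lower, 3 of them these same genes, with a median of -0.54, where the shares of all genes were 6.59% and 7.67%. The summed list stood at 21983 and 22014 CPM in B cells and at 309 and 1575 CPM in T cells, so the 2 cell types that make up the subtracted mean differed in this list. The list summed to 42282 CPM in naive cells and 47205 CPM at 3 days, with cell medians of 37219 (10480 to 78222) and 49256 (8388 to 82896) CPM, and the ranges overlapped nearly whole. H2-DMb2, a chain of the peptide exchange factor for class II, went from 41.7 CPM in 6 of 16 cells to 167 CPM in 67 of 108. Of 17 class I genes 1 was higher and 2 lower (median -0.09), and less B and T cells 1 and 0 (median -0.11). Of 13 tested costimulatory and checkpoint genes 1 was higher, Pdcd1lg2, which encodes PD-L2, and 1 lower, Cd200, a ligand of an inhibitory receptor (median -0.11), and less B and T cells the counts were 1 and 3 (median -0.10). Itgax, the CD11c chain, stood at 79.9 CPM in naive and 223 CPM in 3-day cDCs, with cell medians of 50.9 and 136 CPM, and the cell ranges overlapped.

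Chemokine and cytokine genes were mixed, against shares of 6.92% higher and 13.3% lower over all genes as measured, and 6.59% and 7.67% less B and T cells. Of 9 tested chemokine receptor genes 2 were at least 2-fold higher, among them Cxcr4, the receptor for CXCL12, at 48.7 and 217 CPM (6 of 16 and 77 of 108 cells), and 2 were lower, among them Cx3cr1 at 97.3 and 38.6 CPM. Less B and T cells 2 receptor genes were higher and 4 lower (median -0.18). Of 10 tested cytokine genes 2 were higher and 5 lower, with Il1b, which encodes interleukin 1β, at 862 CPM in naive and 2879 CPM at 3 days, and cell medians of 130 and 1388 CPM. Less B and T cells its log2 ratio was -2.10, and 0 cytokine genes were higher and 6 lower. Of 12 tested chemokine genes 4 were higher and 1 lower (median 0.35), but less B and T cells the direction turned, with 0 higher and 4 lower (median -0.56). Of 12 tested pattern recognition genes 3 were higher, Tlr1, Tlr2 and Clec4n, and 0 lower. On the scale less B and T cells 2 of these were higher and 1 gene lower, and Tlr2 stood at a log2 ratio of 0.32.

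**Figure D5:**
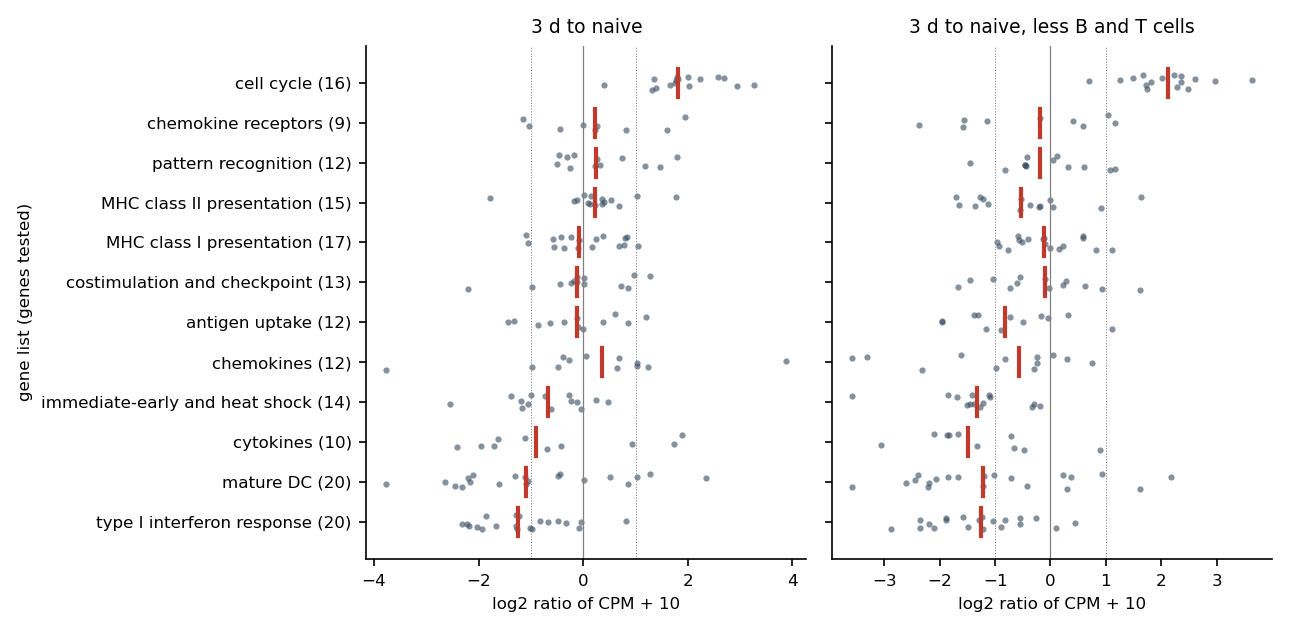
Log2 ratio of CPM plus 10, 3 days to naive, for the tested genes of 12 lists (points) in cDCs, as measured (left) and less the mean of B and T cells (right). Red bars are medians and dotted lines mark 2-fold. The cell cycle list has medians of 1.81 and 2.13, and the type I interferon list -1.24 and -1.26.

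Interferon response genes were lower at 3 days in pooled values but not in the median cell. Of 20 tested type I interferon response genes 12 were at least 2-fold lower and none higher, with a median of -1.24, where 13.3% of all genes were lower. Less B and T cells 13 were lower and 0 higher (median -1.26), where 7.67% of all genes were lower. Yet the cell median of the summed list was 767 CPM in the naive cells and 1092 CPM at 3 days, in the opposite order, and 2 naive cells held 50.6% of the naive UMIs of the list. The naive cells ran from 256 to 9700 CPM and the 3-day cells from 97.0 to 4440 CPM. Isg15, a ubiquitin-like protein induced by interferon, stood at 160 CPM in the naive cDCs with 52.2% of its UMIs in 1 cell. Without cells carrying genes of other lineages 1 gene was lower in place of 12, and when naive cells were left out one at a time the count ran from 7 to 13.

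The mature list had the same limit. Of 20 tested genes 12 were at least 2-fold lower at 3 days and 3 higher (median -1.10), where 13.3% of all genes were lower and 6.92% higher, but the count ran from 4 to 12 when naive cells were left out one at a time, and was 0 in cDC2 alone. Of 14 immediate-early and heat shock genes 6 were lower and 0 higher (median -0.68), among them Egr1 at 309 and 44.3 CPM. The cell medians of the summed list were 3439 CPM in the naive cells and 3355 CPM at 3 days, and the ranges of 1277 to 18748 CPM and 594 to 27097 CPM overlapped. Of 18 transcription factor genes 7 were lower and none higher (median -0.73), among them Zeb2 and Relb. Less B and T cells the log2 ratio of Zeb2 was -1.25, and that of Relb was -0.71, under 2-fold. Of 12 antigen uptake genes 1 was higher and 2 lower, and of 12 cDC core genes outside the rule 2 were higher and 4 lower. Of 14 cDC1 genes 2 were higher and 1 lower, and of 11 cDC2 genes 1 was higher and 2 lower. For several of these lists of 11 to 20 genes, a count of 1 or 2 is near the share of all genes. Less B and T cells, where 6.59% of all genes were higher and 7.67% lower, the counts higher and lower were 2 and 12 for the mature list, 0 and 11 for the immediate-early list, 0 and 8 for the transcription factors and 1 and 5 for antigen uptake. They were 4 and 4 for the core list, 1 and 2 for the cDC1 list and 0 and 4 for the cDC2 list.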

How the data were processed

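Lung leukocytes were profiled by droplet single-cell RNA sequencing, with antibody counts in the transplant libraries. The deposited matrices hold whole UMI counts per gene and cell, which the authors made with Cell Ranger against mm10, version 7.1.0 for the naive and 6.0.0 for the transplant libraries per the file headers. Cells with more than 200 genes and under 10% mitochondrial UMIs were kept, and cDCs and their subsets were found by summed UMIs of the genes given in the report. UMIs were summed over the cells of a library and divided by their total (CPM). Ratios were log2((CPM + 10)/(CPM + 10)) over genes with at least 20 UMIs, and a gene was called at 2-fold. Log2 ratios printed with a counting interval, and folds against a floor, used CPM without the added 10. Intervals were exact at 95% (Clopper-Pearson for shares, conditional binomial for ratios) and cover counting error only. Antibody counts were used as deposited. The members and gene lists were chosen with earlier results of these data known. Named genes were list members at least 2-fold apart or describing a paragraph's subject, and the 8 highest and 8 lowest genes per comparison with at least 50 UMIs. Total UMIs were 28538529 in the naive and 70750470 in the 3-day library. Of the barcodes, 1 was shared between them, and no cDC held a shared barcode. Simulated data with 200 genes changed by a log2 ratio of 2 gave a median of 2.09 and 96.6% interval coverage over 7632 genes. The simulated counts were drawn for pooled cells with counting error only, as the intervals assume. UMIs gathered in a few cells were not simulated, so this coverage checks the calculation and not how the intervals hold in these cells. Scrublet was run in scanpy 1.11.5, and the rest in Python 3.11.15 with numpy 2.4.6, scipy 1.17.1 and pandas 2.3.3. Gene positions came from GENCODE vM21 and promoters from RefSeq. The values of 1 listed gene are not reported here.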

Additional observations from a re-analysis of the deposited data

Results flagged for a closer look

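The library taken 2 hours after reperfusion, which no comparison of the report uses, held 6 cells of 10283 (0.0583%, exact 95% interval 0.0214 to 0.127%) that met the same rule. They drew attention as a signal outside the main measurement. Their median depth was 3278.5 UMIs, against 878 for all kept cells of that library. Cd209a was found in 5 of the 6 with 21 UMIs in all, Fscn1 in 1 cell with 12 UMIs, and Xcr1 and Clec9a in none. By the subset rule 4 were cDC2 and 2 mature. Il1b was found in 5 of the 6 with 52 UMIs. No Il1b value of other cells of that library is set beside it, and the part of transcripts from other cells was not tested.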

How the results depend on the processing

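Of 144 values recomputed under alternatives, 110 stayed within the limits set for them and 34 moved, and the cause of a move was not tested. The cDC share at 3 days (1.27%) was 0.889% under the study's upper limits of 6000 genes and 25000 UMIs, 0.963% without Flt3 and Zbtb46, 0.433% at 3000 UMIs and 0.940% without cells with genes of other lineages. The cDC1 share was 13.5% under the upper limits, and the mature share 4.63% with the rule's genes alone. Genes at least 2-fold higher at 3 days (560) numbered 1160 at a pseudocount of 1, 283 at 100 UMIs and 931 in cDC1 alone, and genes lower (1076) 621 less B and T cells and 423 at 100 UMIs. Cell cycle genes higher (15) numbered 7 under the upper limits, 8 at 100 UMIs, 9 in cDC2 alone and 0 without cells at 10 cell cycle UMIs, which were picked on these same genes. Interferon genes lower (12) numbered 2 under the upper limits, 5 without Flt3 and Zbtb46, 7 at 3000 UMIs, 1 without cells with genes of other lineages, 4 at 100 UMIs and 2 in cDC1 alone. Class II genes higher (2) numbered 1 under the upper limits, without Flt3 and Zbtb46, at 3000 UMIs, less B and T cells, in cDC1 alone, in cDC2 alone and without cells at 10 cell cycle UMIs. Mature genes lower (12) numbered 6 at 100 UMIs, 1 in cDC1 alone and 0 in cDC2 alone. Leaving out naive cells one at a time gave 7 to 13 interferon genes, 1 to 2 class II genes and 4 to 12 mature genes. This alternative, and leaving out cells at 10 cell cycle UMIs, were added after the data were seen. No paired analysis was possible because each condition had 1 library. The 16 naive cells limit every comparison between the libraries.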
